A study of Arabidopsis thaliana with 10 samples.

Results

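The chloroplast genome of *Arabidopsis thaliana* encodes 4 core subunits of its own RNA polymerase, and each of the genes *rpoA*, *rpoB*, *rpoC1* and *rpoC2* was named alone by 1 probe set of the Affymetrix ATH1 array. These 4 probe sets (244978_at for *rpoA*, 244999_at for *rpoB*, 244998_at for *rpoC1* and 244997_at for *rpoC2*) were taken by name from the annotation, out of 22746 probe sets that are not array controls. The study asked how transcripts in leaves depend on AtCPSF30, a subunit of the nuclear complex that cleaves and polyadenylates pre-mRNA. Leaves of plants grown in soil for 30 days were measured on 10 arrays. Wild-type plants (3 arrays) were of the Columbia background. The *oxt6* mutant (3 arrays) carries a T-DNA insertion in the first exon of At1g30460, the gene for AtCPSF30, in that background. The complemented plants (4 arrays) are *oxt6* plants that also carry a genomic fragment from which only the smaller of the gene's proteins, AtCPSF30, is made. They came from 2 transformed lines, line 5 and line 6, with 2 arrays each, so that each line is a single transformant, and every RNA sample was a pool of several plants. At1g30460 itself was checked by the probe set that the methods name for it, which detects only the larger of its mRNAs, not supplied by the fragment. Its signal was 39.2, 38.7 and 71.2 in the wild-type, 27.1, 54.7 and 38.1 on the arrays labelled *oxt6*, 16.0 and 18.7 in line 5 and 16.0 and 16.0 in line 6. The arrays labelled *oxt6* thus overlapped the wild-type at a dim signal (log2 difference -0.30, limma adjusted p = 0.570 over all probe sets), so the *oxt6* label was not borne out by this probe set. The complemented arrays were at or near the floor. Precision is limited by how few arrays each group holds.

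The plastid-encoded RNA polymerase is a bacterial-type enzyme. Its core is built from an alpha subunit (*rpoA*), a beta subunit (*rpoB*), and the beta-prime chain of bacteria split into products of *rpoC1*, which holds the catalytic site, and *rpoC2*. Nucleus-encoded sigma factors direct the core to promoters, nucleus-encoded PEP-associated proteins (PAPs) join it in green tissue, and a separate, phage-type, nucleus-encoded polymerase transcribes *rpoB*, *rpoC1* and *rpoC2* themselves as 1 operon. *rpoA* lies elsewhere, at the end of a cluster of ribosomal protein genes, and the RefSeq annotation (TAIR10.1) places it next to *petD*, whereas *rpoC1* stands between *rpoC2* and *rpoB* and *rpoC2* is next to *rps2*. Most chloroplast transcripts carry no lasting poly(A) tail, and the standard labelling for this array primes on poly(A); how this bears on the signals below was not tested.

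Signals are PLIER intensities, a linear scale with a floor at 16, and levels of different probe sets cannot be set against each other. The arrays had a median intensity of 40.9 to 60.5, and between 11 and 2920 probe sets stood at the floor. The lowest median and the highest number at the floor were both those of *oxt6* replicate 1. The leaf markers RCA (rubisco activase) and LHCB4.1 (a light-harvesting protein) read at least 631 and 926 on every array, the root markers EXPA7 and PYK10 read at most 56.9 and 331, and no flower or seed marker was named by a probe set. The ratio of 3′ to 5′ signal of the actin, GAPDH and ubiquitin controls, on the log2 scale, was 2.18 ± 0.18 (SD, n = 3) in the wild-type, 2.24 ± 1.003 (n = 3) in *oxt6* and 0.039 ± 0.069 (n = 4) in the complemented plants. Within *oxt6* it was 1.09 in replicate 1 against 2.88 and 2.75 in the others. All 4 complemented arrays lay below all others in this ratio (difference from the wild-type -2.15; p = 0.0286 by an exact permutation test, two-sided, which is as low as these group sizes allow), so that genotype and RNA profile cannot be told apart in comparisons with these arrays. Among the wild-type arrays, replicate 3 was the highest for 3 of the 4 *rpo* probe sets and for 46 of the 65 other chloroplast-encoded probe sets, and the *rpo* differences from the wild-type are also given without it.

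*rpoA*, the alpha subunit gene, read 877, 711 and 696 in wild-type replicates 1, 2 and 3, 600.0, 689 and 681 in the *oxt6* replicates, 493 and 556 in line 5 and 569 and 593 in line 6. The 3 groups did not overlap, with the wild-type highest, *oxt6* next and the complemented plants lowest, although the gap between the lowest wild-type array and the highest *oxt6* array was small beside the spread within either group. Group means were 762 ± 101 (SD, n = 3), 657 ± 49.3 (n = 3) and 553 ± 42.7 (n = 4).

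*rpoC1*, the gene for the subunit with the catalytic site, fell into a high and a low set of arrays. It read 380.0, 269.7 and 663 in the wild-type, 523, 344 and 365 in *oxt6*, 139 and 149 in line 5 and 131 and 147 in line 6. The wild-type and *oxt6* arrays were intermixed, and all 4 complemented arrays were below every one of them. Group means were 438 ± 203 (SD, n = 3), 410.5 ± 97.8 (n = 3) and 141 ± 8.23 (n = 4), so the spread within the complemented group was far narrower than in the others.

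*rpoC2*, the gene for the other part of beta-prime, divided the arrays in the same way. It read 225, 205 and 516 in the wild-type, 244, 172 and 178 in *oxt6*, 66.0 and 76.1 in line 5 and 63.5 and 71.0 in line 6. Wild-type replicate 3 stood well above the rest, the other wild-type arrays overlapped *oxt6*, and the complemented arrays were again lowest. Group means were 315.5 ± 174 (SD, n = 3), 198 ± 40.04 (n = 3) and 69.2 ± 5.58 (n = 4).

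*rpoB*, the beta subunit gene, was dim. It read 33.1, 30.2 and 53.1 in the wild-type, 18.6, 59.2 and 26.7 in *oxt6*, 21.2 and 33.2 in line 5 and 33.2 and 27.9 in line 6. The groups overlapped throughout, and the largest value and the smallest both belonged to *oxt6*. Its mean over all arrays, 33.6, was under the median of such means (53.1), so that it did not enter the comparison of the 11370 brighter probe sets, and its tests come from a fit over all 22746 probe sets.

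**Figure D1:**
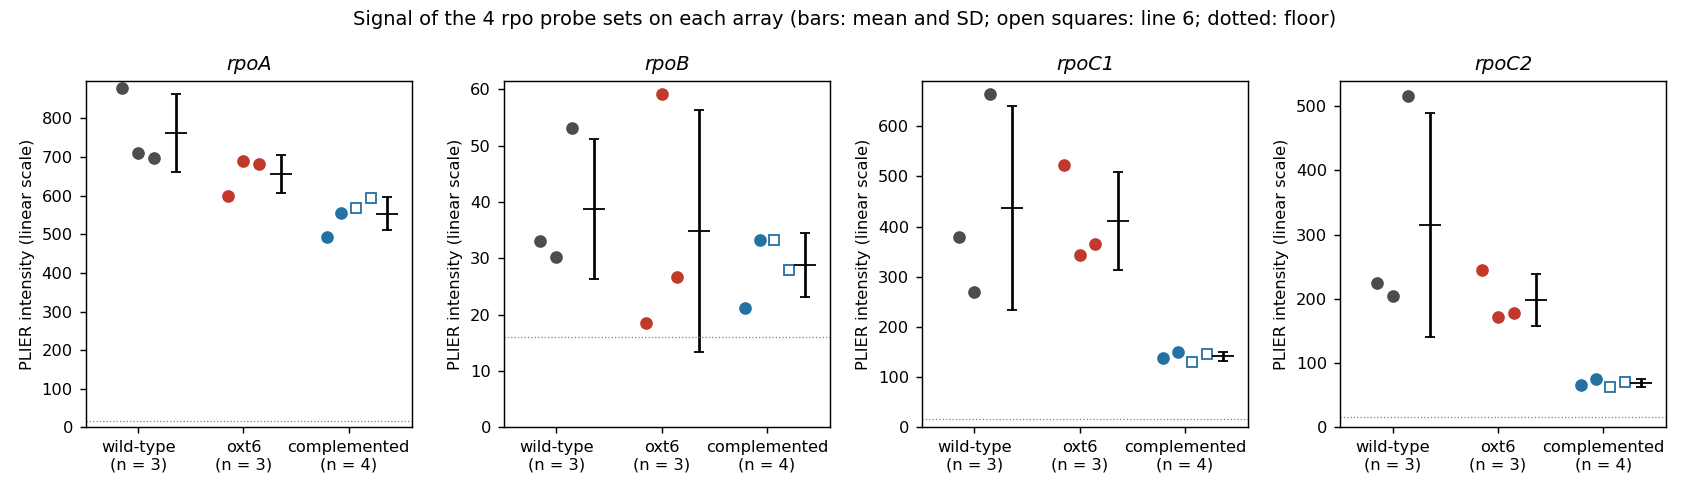
PLIER intensity (linear axis from 0) of each *rpo* probe set on each array; points are arrays, open squares are line 6, bars are the group mean and SD, and the dotted line is the floor at 16. The complemented arrays lie at 131 to 149 for *rpoC1* and 63.5 to 76.1 for *rpoC2*, below every other array, while the *rpoB* groups overlap.

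No *rpo* probe set passed the test on the arrays labelled *oxt6* against the wild-type. Of the 3 that entered the comparison, 0 were called (limma, Benjamini-Hochberg adjusted p under 0.05), where 31.2% of the 11370 probe sets compared were, 17.9% as higher and 13.3% as lower. The count was also 0 at an unadjusted p under 0.05, where the share of all probe sets was not counted. By the methods' t-test it was 0 as well, beside 1899 of all probe sets called without adjustment (p under 0.01). The log2 difference was -0.21 (SE 0.17, 95% interval -0.57 to 0.15, adjusted p = 0.373) for *rpoA*, and -0.017 (SE 0.28, interval -0.62 to 0.58, adjusted p = 0.969) for *rpoC1*. For *rpoC2* it was -0.56 (SE 0.29, interval -1.18 to 0.068, adjusted p = 0.165). The interval of *rpoC2* thus reached just past 0, and a decrease of more than 2-fold lay within it. Without wild-type replicate 3 the *rpoC2* difference was -0.13 (adjusted p = 0.645), that of *rpoC1* 0.33 (adjusted p = 0.303) and that of *rpoA* -0.27 (adjusted p = 0.293). Without *oxt6* replicate 1 they were -0.71 (adjusted p = 0.0968), -0.20 (adjusted p = 0.620) and -0.14 (adjusted p = 0.528). For *rpoB* the fit over all probe sets, in which 14.5% were called, gave -0.27 (SE 0.35, interval -1.01 to 0.46, adjusted p = 0.705), or -0.029 (adjusted p = 0.980) without wild-type replicate 3 and 0.081 (adjusted p = 0.915) without *oxt6* replicate 1. With arrays weighted by quality, *rpoA* (-0.27, adjusted p = 0.0474) and *rpoC2* (-0.39, adjusted p = 0.0483) were called, but that fit called 6663 of the 11370 probe sets, 30.1% of all as lower, and limma's estimate of the weights stopped before it had converged. The groups did not overlap for *rpoA*, as was the case, with *oxt6* lower, for 21.1% of all probe sets compared. In this comparison the leaf marker LHCB4.1 was lower (-1.37, adjusted p = 0.0201), RCA differed by -0.28 (adjusted p = 0.689) and the root marker PYK10 was higher (0.98, adjusted p = 0.00222); their part in the *rpo* values was not tested.

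Against the wild-type, *rpoC2* of the complemented plants was 4.13-fold and *rpoC1* 2.88-fold lower. The log2 differences were -2.05 (SE 0.27, 95% interval -2.63 to -1.46, limma adjusted p = 2.05e-05) and -1.52 (SE 0.26, interval -2.08 to -0.97, adjusted p = 0.000152). Without wild-type replicate 3 they were -1.62 (adjusted p = 2.38e-05) and -1.18 (adjusted p = 0.000448). *rpoA* was 1.37-fold lower (-0.46, SE 0.16, interval -0.79 to -0.12, adjusted p = 0.0176), but this was lost without wild-type replicate 1 (-0.35, adjusted p = 0.0984; -0.52 and 0.0154 without replicate 3) and turned to 0.059 (adjusted p = 0.858) when each array was centred on the median of the other chloroplast-encoded probe sets. *rpoB* was not called (-0.39, SE 0.32, interval -1.08 to 0.30, adjusted p = 0.326, in the fit over all probe sets, which called 55.4%; -0.15, adjusted p = 0.761, without wild-type replicate 3). Thus 3 of the 3 *rpo* probe sets compared passed the test as lower, beside 73.3% of all probe sets called, 33.6% as lower and 39.7% as higher. All 3 also had complemented arrays wholly below the wild-type, as had 35.0% of all probe sets compared. In bulk leaf RNA, fewer chloroplast-rich cells and less of a transcript per cell cannot be told apart.

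Beside the arrays labelled *oxt6*, in a comparison that uses the same complemented arrays, the complemented plants again had less of both: *rpoC1* was 2.84-fold and *rpoC2* 2.81-fold higher in *oxt6*. The log2 differences were 1.51 (SE 0.26, 95% interval 0.95 to 2.07, limma adjusted p = 0.000176) and 1.49 (SE 0.27, interval 0.91 to 2.07, adjusted p = 0.000269). Without *oxt6* replicate 1 they were 1.32 (adjusted p = 0.00097) and 1.33 (adjusted p = 0.00164). *rpoA* differed by 0.25 (SE 0.16, interval -0.089 to 0.59, adjusted p = 0.168; -0.35 with chloroplast-centred arrays), and *rpoB* by 0.12 (SE 0.32, interval -0.57 to 0.81, adjusted p = 0.795, in the fit over all probe sets, which called 48.2%). So 2 of the 3 *rpo* probe sets compared passed as higher, where 71.5% of all probe sets were called, 32.8% as higher and 38.6% as lower. The arrays did not overlap for these 2 and for *rpoA*, as was so, with *oxt6* higher, for 32.0% of all probe sets compared. With arrays weighted by quality *rpoA* was called as well (0.24, adjusted p = 0.0364), in a fit that called 9670 of the 11370 probe sets, 40.3% of all as higher, on weights that had not converged.

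No *rpo* difference between the 2 complemented lines passed the test. In line 6 against line 5 the log2 difference was -0.053 (95% interval -0.80 to 0.70, limma adjusted p = 0.968) for *rpoC1*, -0.077 (-0.87 to 0.72, adjusted p = 0.954) for *rpoC2*, and 0.15 (-0.24 to 0.54, adjusted p = 0.772) for *rpoA*. For *rpoB* it was 0.19 (-0.75 to 1.13, adjusted p = 1, over all probe sets, of which 2.04% were called). Of the 3 compared 0 were called at an adjusted p under 0.05, where 4.81% of all probe sets were. The count was also 0 at an unadjusted p under 0.05, for which the share of all probe sets was not counted. With 2 arrays a line the intervals were wide.

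The size of the differences in the complemented plants was set beside 2 features that moved with that group. When the 3′ to 5′ signal entered the fit as a covariate, *rpoC1* (-1.94, limma adjusted p = 0.0209) and *rpoC2* (-2.35, adjusted p = 0.0128) were called lower than in the wild-type, in a fit that called 9.11% of all probe sets as lower and 24.9% as higher. Both were also called higher in *oxt6* than in the complemented plants (1.93, adjusted p = 0.0287, and 1.80, adjusted p = 0.0473), where that fit called 7.75% as higher and 18.0% as lower. Under that covariate *rpoA* was not called against the wild-type (-0.24, adjusted p = 0.535), and the uncalled difference of *rpoB* took the other sign (1.06, adjusted p = 0.176). Since the complemented arrays shared no value of this signal with the others, the covariate's slope rested on the spread within groups, and *oxt6* replicate 1 held 63.8% of its sum of squares. Without that array, an alternative chosen after seeing the data, the covariate fit called 0 of the 11370 probe sets in either comparison with the complemented plants (limma; 1197 against the wild-type and 1242 against *oxt6* at an unadjusted p under 0.05). *rpoC1* and *rpoC2* then stood at 4.27 (SE 1.46, adjusted p = 0.378) and 3.98 (SE 1.71, adjusted p = 0.458) against the wild-type, with the sign turned, and at -6.19 (SE 1.89) and -6.48 (SE 2.22, adjusted p = 0.383 for both) in *oxt6* against the complemented plants. In *oxt6* against the wild-type they were called as lower, at -1.92 (adjusted p = 0.0367) and -2.50 (adjusted p = 0.0262). That fit called 278 of all 11370 probe sets as lower there and 537 as higher. The calls given here with this covariate in comparisons with the complemented plants therefore rest on that 1 array. The second feature was the level of the chloroplast-encoded probe sets together, whose median log2 intensity was 9.47 ± 0.28 in the wild-type, 9.56 ± 0.080 in *oxt6* and 8.96 ± 0.21 in the complemented plants. Centring each array on it moved the median of all probe sets by 0.52 in the comparison with the wild-type and by -0.60 in that of *oxt6* with the complemented plants. *rpoC1* (-1.01, adjusted p = 0.0015) and *rpoC2* (-1.53, adjusted p = 5.12e-06) were then called lower than in the wild-type, where 16.8% of all probe sets were called as lower, and the differences of *oxt6* from the complemented plants were 0.91 (adjusted p = 0.00393) and 0.89 (adjusted p = 0.00422), with 14.3% of all probe sets called as higher. Against the wild-type the leaf markers RCA (2.32, adjusted p = 0.000366) and LHCB4.1 (0.97, adjusted p = 0.0321) were higher, but with the covariate the sign of both turned, to -0.55 (adjusted p = 0.163) and -1.38 (adjusted p = 0.0109). Of the root markers PYK10 was higher, by 1.57 (adjusted p = 8.42e-06, or 1.40 and 0.0177 with the covariate). EXPA7 was lower (-1.31, adjusted p = 0.000221, over all probe sets), but not called with the covariate (-1.20, adjusted p = 0.0912). *oxt6* against the complemented plants gave -2.60 for RCA, -2.34 for LHCB4.1, -0.58 for PYK10 and 0.90 for EXPA7, each called. With the covariate, in the fit over all probe sets, none of them was called. There the differences were 0.35 for RCA, 0.071 for LHCB4.1, -0.41 for PYK10 and 0.78 for EXPA7. The part of these markers in the *rpo* results was not tested.

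**Figure D2:**
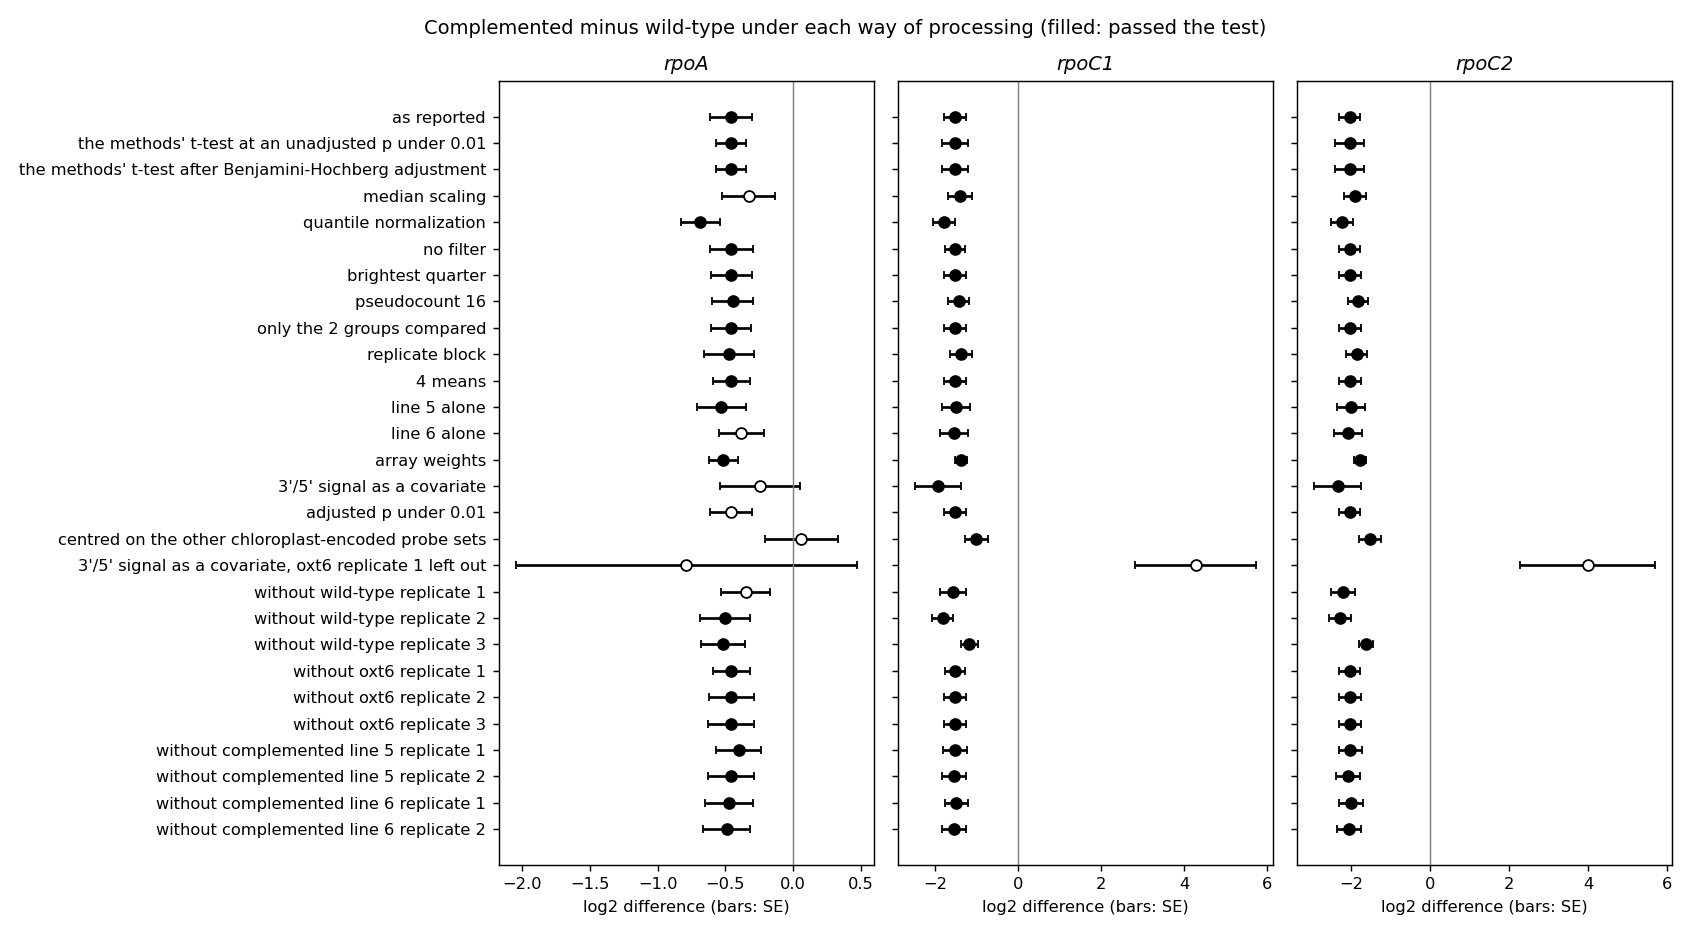
Log2 difference of *rpoA*, *rpoC1* and *rpoC2*, complemented plants minus wild-type, under each way of processing; bars are SE and filled points passed the test. *rpoC1* and *rpoC2* lie below 0 and filled, between -1.94 and -1.01 and between -2.35 and -1.53, except at 4.27 and 3.98, uncalled, with the covariate and *oxt6* replicate 1 left out. *rpoA* loses its call in 7 settings and crosses 0 when arrays are centred on the chloroplast-encoded probe sets.

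Ratios taken within an array are nearly unchanged by a single factor that scales that whole array. A normalization that depends on intensity can still change them. The log2 ratio of *rpoC1* to *rpoA* was -0.89 ± 0.72 (SD, n = 3) in the wild-type, -0.70 ± 0.44 (n = 3) in *oxt6* and -1.96 ± 0.13 (n = 4) in the complemented plants, and that of *rpoC2* to *rpoA* was -1.39 ± 0.84, -1.74 ± 0.39 and -2.98 ± 0.14. For both ratios the complemented arrays lay below all other arrays, and each of the 4 comparisons with them reached the smallest p that the group sizes allow (p = 0.0286 by an exact permutation test, two-sided, and 0.0514 when adjusted over 9 ratio tests). The ratio of *rpoC2* to *rpoC1* gave a different grouping. It was -0.75, -0.39 and -0.36 in the wild-type replicates, -1.09, -0.99 and -1.03 in *oxt6*, -1.06 and -0.96 in line 5 and -1.03 and -1.04 in line 6. Here the 3 wild-type arrays stood above all 7 arrays of *oxt6* and complemented plants, which were intermixed. The difference from the wild-type was -0.54 in *oxt6* (exact p = 0.1 by the same test, which 3 against 3 arrays cannot pass below, adjusted p = 0.15) and -0.52 in the complemented plants (exact p = 0.0286, adjusted p = 0.0514), while *oxt6* and the complemented plants differed by -0.017 (exact p = 0.714). None of the 9 ratio tests passed after adjustment. Groups of this size left little room for any to pass, so no conclusion is drawn from that. A ratio within an array shows unequal change of its members and not which of them moved.

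**Figure D3:**
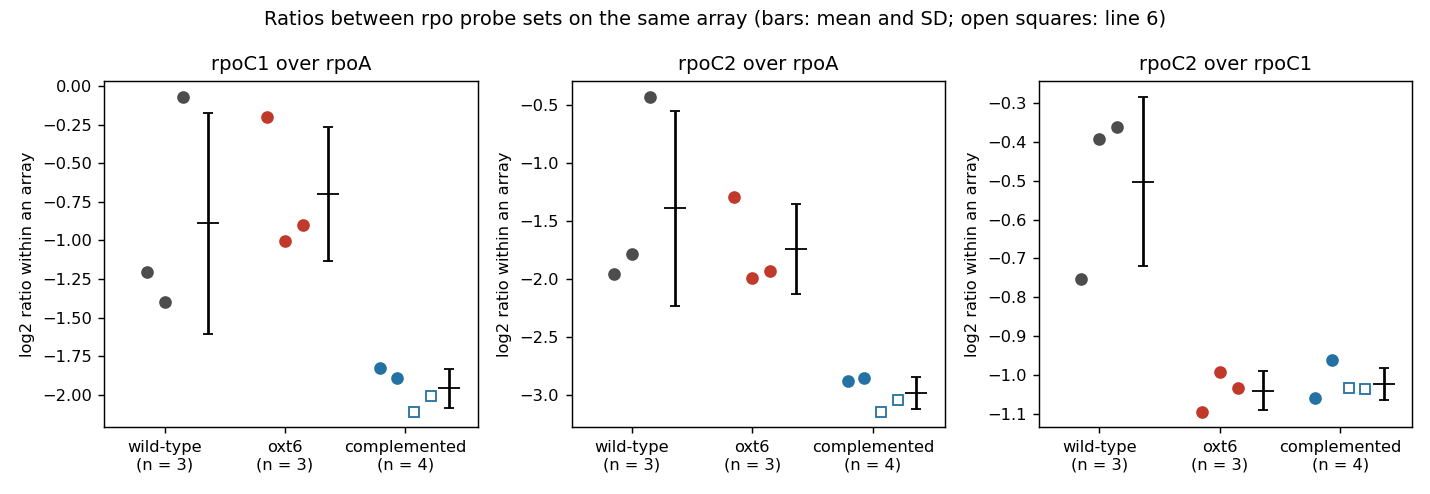
Log2 ratio of 1 *rpo* probe set to another on the same array; points are arrays, open squares are line 6 and bars are the group mean and SD. For *rpoC1* and *rpoC2* over *rpoA* the complemented arrays are lowest (means -1.96 and -2.98), and for *rpoC2* over *rpoC1* the wild-type arrays (-0.75 to -0.36) are above all others (-1.09 to -0.96).

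Downstream of *rpoC2*, in the same row of genes, lie *rps2*, a ribosomal protein gene, and *atpI*, *atpH*, *atpF* and *atpA*, which encode subunits of the ATP synthase and can be read through from the *rpoB* promoter. All 5 were measured. Neighbours in this row differed in direction: 2 of the 5 rose and 2 fell in the complemented plants against the wild-type, beside 39.7% called as higher and 33.6% as lower among all probe sets. *atpH* fell by 2.68 on the log2 scale (SE 0.20, limma adjusted p = 5.39e-07) and *atpI* by 1.27 (SE 0.27, adjusted p = 0.000769), as *rpoC1* and *rpoC2* did. *rps2*, between *rpoC2* and *atpI*, rose by 1.40 (SE 0.29, adjusted p = 0.000717), and *atpA* rose by 2.93 (SE 0.41, adjusted p = 3.47e-05, named here after its value was seen). By line, *rps2* read 268 to 298 in line 5 and 455 to 550 in line 6, and *atpA* 876 to 1237 and 2332 to 3519. The share of all probe sets whose lines did not overlap was not counted. Of the 5, 1 was called as higher in line 6 than in line 5, beside 144 of all 11370 probe sets. *atpF* had a difference of 0.47 (SE 0.40, adjusted p = 0.305). The intensities differed accordingly. *rps2* read 110.4 to 229.5 in the wild-type, 105 to 129 in *oxt6* and 268 to 549.9 in the complemented plants, with no overlap of the last with the others. *atpI* read 52.0 to 131, 80.3 to 129 and 30.1 to 35.0, with the complemented arrays lowest. Over all probe sets compared, 40.3% had complemented arrays wholly above the wild-type and 35.0% wholly below. Of the 5, only *atpH* in *oxt6* against the wild-type passed the test (-0.65, SE 0.22, adjusted p = 0.0396, not called with chloroplast-centred arrays), and the median of the 5 was 0.15, beside -0.028 over all probe sets compared. Between *oxt6* and the complemented plants *atpI* (1.54) and *atpH* (2.04) were higher in *oxt6* and *rps2* (-1.69) and *atpA* (-2.78) lower, with adjusted p between 2.72e-06 and 0.000183, beside 32.8% called as higher and 38.6% as lower among all. With the 3′ to 5′ signal as a covariate *atpH* alone of the 5 was called. It was lower in the complemented plants than in the wild-type (-3.18, adjusted p = 0.000959), where 9.11% of all probe sets were. It was higher in *oxt6* than in the complemented plants (2.55, adjusted p = 0.00215), where 7.75% of all were.

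Of the ribosomal protein genes transcribed with *rpoA*, 3 rose and none fell in the complemented plants against the wild-type, where 39.7% of all probe sets were called as higher. Out of 10 listed, 6 were named by a probe set of their own and 5 were bright enough to be compared. While *rpoA* had a difference of -0.46 there (0.059 with chloroplast-centred arrays), *rpl22* rose by 2.22 (SE 0.32, limma adjusted p = 4.13e-05), *rps3* by 1.84 (SE 0.28, adjusted p = 6.06e-05) and *rpl16* by 0.70 (SE 0.22, adjusted p = 0.013). *rps19* (0.74, adjusted p = 0.0667) and *rpl36* (0.12, adjusted p = 0.713) did not pass, nor did *rpl14*, which was too dim for the comparison and gave -0.32 (adjusted p = 0.513) over all probe sets. With the 3′ to 5′ covariate 2 of the 5, *rpl22* (2.73, adjusted p = 0.0139) and *rps3* (2.004, adjusted p = 0.0288), were called as higher, beside 24.9% of all probe sets. With chloroplast-centred arrays 5 of the 5 were, beside 5727 of all 11370. Without wild-type replicate 3 they were 4, beside 4437 of all 11370. *rpl22* read 23.1 to 59.6 in the wild-type, 46.9 to 64.6 in *oxt6* and 127 to 256 in the complemented plants, where both line 6 arrays were above both line 5 arrays. How many of all probe sets had their lines apart in this way was not counted. For *oxt6* against the wild-type 0 of the 5 passed, beside 31.2% of all probe sets. Without wild-type replicate 3, 1 of the 5 was called as higher, beside 1855 of all 11370. The largest difference with all arrays was -0.73 for *rpl36* (adjusted p = 0.0816). Against the complemented plants 4 of the 5 were lower in *oxt6*, beside 38.6% of all probe sets, and 1 of the 5 with the covariate, beside 18.0%.

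**Figure D4:**
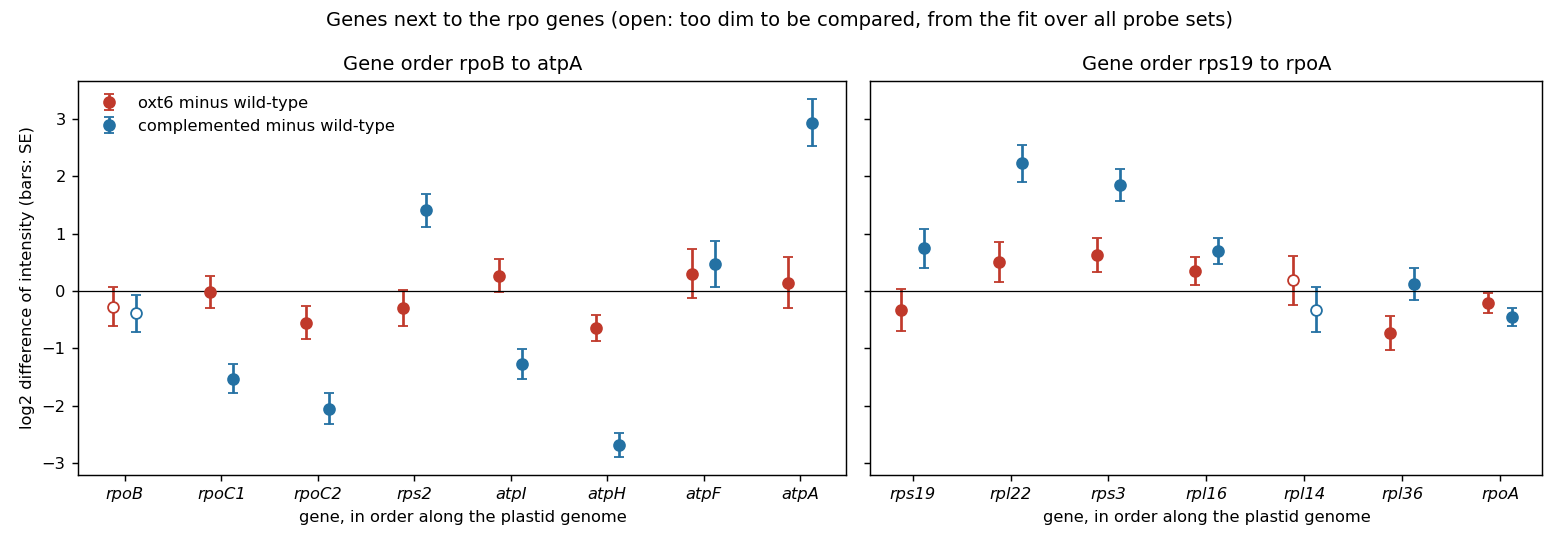
Log2 difference from the wild-type of the *rpo* genes and the genes transcribed with them, in gene order, for *oxt6* (red) and the complemented plants (blue); bars are SE and open points are probe sets too dim for the comparison. In the complemented plants *rpoC1* (-1.52), *rpoC2* (-2.05), *atpI* (-1.27) and *atpH* (-2.68) lie below 0 while *rps2* (1.40) and *atpA* (2.93), in the same row of genes, lie above.

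Across the chloroplast genome, 62 of the 65 other chloroplast-encoded probe sets were bright enough to be compared. Of these, 36 fell and 14 rose in the complemented plants against the wild-type, with a median of -0.89, beside 0.083 over all probe sets compared, of which 33.6% were called as lower and 39.7% as higher. With chloroplast-centred arrays 29 fell and 20 rose, beside 1905 and 5727 of all 11370. With the 3′ to 5′ covariate the counts were 15 and 7, beside 1036 and 2833 of all. Without wild-type replicate 3 they were 34 and 17, beside 3502 and 4437 of all. Ranked together with these 62 from the most lowered, *rpoC2* was in place 12, *rpoC1* in place 21 and *rpoA* in place 41 of 65, so that the *rpo* genes stood inside the range of the other chloroplast genes. In *oxt6* against the wild-type 5 rose and 5 fell (median -0.13), beside 17.9% and 13.3% of all probe sets. Without wild-type replicate 3 the counts were 7 and 3, beside 1855 and 1089 of all 11370. With all arrays *rpoC2* was in place 9 from the lowest, *rpoA* in place 27 and *rpoC1* in place 38. Between *oxt6* and the complemented plants 34 were higher and 13 lower in *oxt6* (median 0.58), beside 32.8% and 38.6% of all probe sets. Here *rpoC1* was in place 21 and *rpoC2* in place 22 from the highest. With chloroplast-centred arrays 23 were higher and 20 lower (median -0.016), beside 1626 and 5932 of all 11370. With the covariate 10 were called as higher and 3 as lower, beside 881 and 2049 of all.

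**Figure D5:**
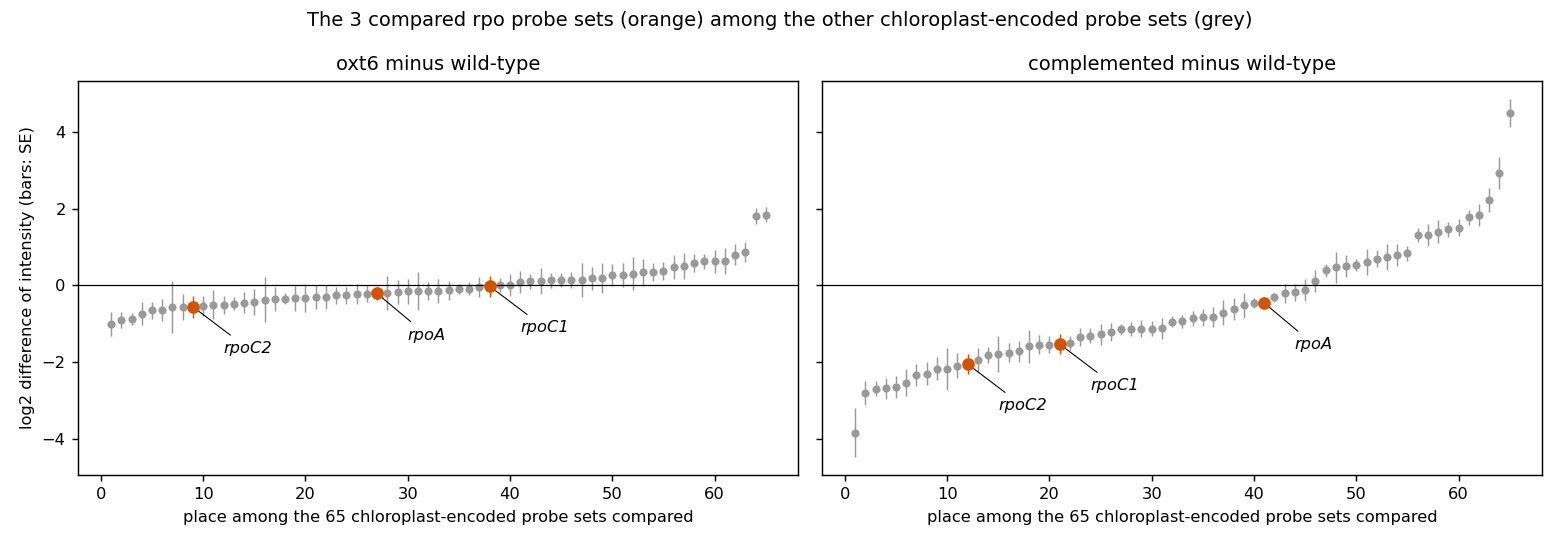
Log2 difference from the wild-type of the 65 chloroplast-encoded probe sets compared, ranked from lowest to highest; orange points are *rpo* genes, grey points the other 62, and bars are SE. In the complemented plants *rpoC2* (place 12) and *rpoC1* (place 21) lie within the lowered majority and *rpoA* at place 41, with a sign that turns when arrays are centred on the chloroplast-encoded probe sets.

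Genes whose promoters are read by the plastid-encoded polymerase were counted as a list of 9. Of the 9, 4 fell and 1 rose in the complemented plants against the wild-type (median -0.51), beside 33.6% and 39.7% of all probe sets. But with chloroplast-centred arrays 3 fell and 2 rose (median 0.0052), beside 1905 and 5727 of all 11370. Without wild-type replicate 3, 4 fell and 2 rose, beside 3502 and 4437 of all. With the 3′ to 5′ signal in the fit 1 fell and 1 rose, beside 1036 and 2833 of all. *rbcL*, for the large subunit of rubisco, fell by 1.30 (limma adjusted p = 5.58e-05), *psbE* by 1.13 (adjusted p = 0.000474) and *psbB* by 1.12 (adjusted p = 0.00207), the last 2 being photosystem II genes. *psaJ* also fell, by 0.83 (adjusted p = 0.00317), and *psaA*, for a reaction centre protein of photosystem I, rose by 4.48 (adjusted p = 8.27e-07); both are named here after their values were seen. Where no *rpo* probe set passed, in *oxt6* against the wild-type, *psbC* (-0.998, adjusted p = 0.0272) and *rbcL* (-0.91, adjusted p = 0.00529) of the 9 were lower, beside 13.3% of all probe sets. None of the 9 was higher, and their median was -0.26. Without wild-type replicate 3, 1 of the 9 was lower, beside 1089 of all 11370. *rbcL* read 254 to 451 in the wild-type, 154 to 206 in *oxt6* and 137 to 148 in the complemented plants, with no overlap between any of the groups. Among all probe sets compared, *oxt6* lay wholly below the wild-type for 21.1% and wholly above the complemented plants for 32.0%. The complemented plants lay wholly below the wild-type for 35.0%. Of genes read by the nucleus-encoded polymerase, *clpP*, for a protease subunit, was higher than in the wild-type in both *oxt6* (0.63, adjusted p = 0.0325, not called with chloroplast-centred arrays or without *oxt6* replicate 1) and the complemented plants (0.84, adjusted p = 0.00141), the latter call being lost with the 3′ to 5′ covariate (0.28, adjusted p = 0.555). *accD*, for a subunit of acetyl-CoA carboxylase, was higher in *oxt6* than in the complemented plants (1.34, adjusted p = 0.00247), but not with the covariate (0.86, adjusted p = 0.391), and passed neither comparison with the wild-type. Without wild-type replicate 3 both genes passed against the wild-type in *oxt6*, as higher, where 1855 of all 11370 probe sets did. No test compared these lists with each other.

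Few nuclear partners of the polymerase could be followed. Of 12 PAP genes, PAP9 (an iron superoxide dismutase) and PAP10 (a thioredoxin-like protein) were named by a probe set, and neither passed in *oxt6* against the wild-type (0.31, limma adjusted p = 0.366, and 0.34, adjusted p = 0.183). But 1 of the 2 was called as higher without *oxt6* replicate 1, where 2466 of all 11370 probe sets were. PAP10 rose by 0.65 in the complemented plants against the wild-type (SE 0.17, limma adjusted p = 0.00449), where 39.7% of all probe sets were called as higher. It read 61.4 to 82.9 in the wild-type, 69.0 to 105 in *oxt6* and 101 to 123 in the complemented plants, which overlapped *oxt6* and not the wild-type. Complemented arrays were wholly above the wild-type for 40.3% of all probe sets compared. Of the 3 phage-type polymerases, RPOTmp alone was named; it was dim (22.9 to 25.9 in the wild-type) and in the fit over all probe sets differed from the wild-type by -0.10 in *oxt6* (adjusted p = 0.860) and by 0.24 in the complemented plants (adjusted p = 0.404). YS1, an editing factor for *rpoB* transcripts, was dim as well. It was higher in *oxt6* than in the complemented plants (0.68, limma adjusted p = 0.0401) in the fit over all probe sets, which called 48.2% there. It had no called difference from the wild-type. None of the 6 sigma factors was named by a probe set of its own.

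The *rpo* genes differed in which other genes ran beside them over the 10 arrays. Likeness was measured as the root mean square difference of log2 profiles, each centred on its own mean, which is a description over arrays that share groups and scaling. The measure depends on the size of a profile's swings as well as on their shape. *rpoC1* and *rpoC2* differed by 0.263, which made *rpoC2* the third nearest of 11369 probe sets to *rpoC1*, and *rpoC1* the second nearest to *rpoC2*. The other named neighbours were AT1G14890 (0.230) and AT2G11570 (0.242) for *rpoC1* and AT1G14890 (0.243) and AT3G10080 (0.293) for *rpoC2*. Other than the *rpo* genes, the nearest chloroplast genes to *rpoC1* were *rps14* (0.294) and its operon neighbour *atpI* (0.301), both for proteins outside the polymerase, and the nearest to *rpoC2* was *ycf3* (0.328). *rpoA* differed by 0.690 from *rpoC1* and by 0.821 from *rpoC2*. Counted from the nearest of 11369 probe sets, *rpoA* was in place 3084 for *rpoC1* and 3352 for *rpoC2*. Its nearest named genes were AT2G26690 (0.0812), AT3G01380 (0.117) and NRPC2 (0.117), a gene of the nuclear RNA polymerase III, and the nearest chloroplast gene was *atpE* (0.129), for an ATP synthase subunit. *rpoB*, with signals near the floor, was nearest to AT2G32000 (0.196), AT1G14020 (0.196) and AT3G25290 (0.207), and differed from its operon partners by 0.824 (*rpoC1*) and 0.910 (*rpoC2*).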

How the data were processed

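Per the labels and the methods, leaf RNA was hybridised to ATH1 arrays, and the authors made the deposited intensity values with PLIER (version not given in the sources used here); they are linear, with a floor at 16. A total of 64 control probe sets were set aside. Probe sets were named for 1 gene by the annotation (13513) or the study's tables (505 more); 503 with several genes were not used by name. Values were taken as log2(intensity + 1), and the 11370 probe sets with a mean above the median of means were compared with limma 3.58.1 (R 4.3.3; 3 group means, trended variance, Benjamini-Hochberg, threshold 0.05). Fold changes understate changes near the floor. The code was tested on simulated data. Replicates were labelled biological.

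Members and lists were chosen with earlier results of these data known; ratio tests, chloroplast-centred scaling and the 3′/5′ covariate without *oxt6* replicate 1 were chosen after seeing the data. The rule named every *rpo* gene, up to 4 genes of each list with the largest difference between *oxt6* and the wild-type, all named polymerases and PAPs, and the 3 nearest genes by likeness. Sequences were not used here.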

Additional observations from a re-analysis of the deposited data

How the results depend on the processing

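All but 16 of the re-computed differences of the 4 *rpo* probe sets kept their direction where called and their side of the threshold. *rpoC1* and *rpoC2* kept their calls against the complemented plants under every alternative but 1, chosen after seeing the data: the 3′/5′ covariate with *oxt6* replicate 1 left out. There they reversed to 4.27 and 3.98 in the complemented plants against the wild-type (*rpoA* -0.79, not called) and to -6.19 and -6.48 in *oxt6* against the complemented plants. In either comparison 0 *rpo* and 0 other probe sets were called. *rpoC1* and *rpoC2* became called in *oxt6* against the wild-type (-1.92 and -2.50, 2 *rpo* probe sets). There 815 of all probe sets were called, 278 of them as lower, and between lines 1599 were called. Fewer arrays entered that fit. The array left out held 63.8% of the within-group sum of squares on which the slope of the full covariate fit rested. In the complemented plants against the wild-type, *rpoA* lost its call under median scaling (-0.33), with line 6 alone (-0.38), with the 3′/5′ signal as a covariate (-0.24), at an adjusted p under 0.01 (-0.46) and without wild-type replicate 1, and reversed to 0.059 with chloroplast-centred arrays, an alternative chosen after seeing the data; leaving out 1 array gave -0.52 to -0.35. Array weights called *rpoA* (-0.27) and *rpoC2* (-0.39), 2 of the 3 compared, in *oxt6* against the wild-type, and *rpoA* (0.24) in *oxt6* against the complemented plants, in fits that called 6663 and 9670 of all 11370 probe sets on weights whose estimation stopped before converging; the cause was not tested.

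The 3545 calls made over all probe sets between *oxt6* and wild-type were 1899 by the methods' t-test (unadjusted p under 0.01), 1594 by it after Benjamini-Hochberg adjustment, 6663 with array weights, 2122 at an adjusted p under 0.01 and 2339 with chloroplast-centred arrays. The methods' further fold-change cut and their removal of probes called absent were not applied with that t-test. In *oxt6* against the complemented plants, 8126 became 4545 for the 5687 brightest (fewer probe sets tested) and 2930 with the covariate. In the complemented plants against the wild-type, 8331 became 12591 with no filter (more tested), 4405 for the 5687 brightest and 3869 with the covariate. Between lines, 547 became 2656 with array weights, 1096 with the covariate, 289 at an adjusted p under 0.01, 360 with chloroplast-centred arrays, and 230 (without line 6 replicate 2) to 1146 (without *oxt6* replicate 1) when 1 array was left out; leaving out any complemented array gave 289 or fewer. The share of calls that were higher moved from 57.4% to 68.4% with median scaling in *oxt6* against the wild-type, from 26.3% to 16.1% between lines, and with chloroplast-centred arrays from 45.9% to 21.5%, from 54.1% to 75.0% and from 26.3% to 64.7% in *oxt6* against the complemented plants, the complemented plants against the wild-type and line 6 against line 5. Median scaling shifted the overall median by 0.11 in *oxt6* and 0.13 in the complemented plants against the wild-type, and quantile normalization by -0.11 in the latter.

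Deviations of same-numbered wild-type and *oxt6* arrays had correlations of 0.102, -0.205 and 0.132 for replicates 1, 2 and 3. The complemented arrays did not enter these, and so few values cannot settle whether replicate numbers pair samples. A replicate block gave -1.39 for *rpoC1* and -1.87 for *rpoC2* in the complemented plants against the wild-type and changed no *rpo* call. Signal over background limits *rpoB*, whose arrays read as low as 18.6 with the floor at 16.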
